A study of Homo sapiens with 6 samples.

Results

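The classical protein tyrosine phosphatases other than SHP2 were examined in xenograft tumours in which SHP2 had been depleted. They were taken as the genes of the deposited array table whose symbol is PTPN with a number or PTPR with a letter, with PTPN11 (SHP2 itself), the pseudogene PTPRVP and the CD45-associated protein gene PTPRCAP left out. This gave 37 genes of 24494 gene symbols, each read by 1 array feature. The tumours were 3 with a short hairpin RNA against Shp2 and 3 with a non-target short hairpin RNA, all grown subcutaneously for about 6 weeks in NSG mice from 1205Lu, a human metastatic melanoma line. NSG mice lack mature lymphocytes and natural killer cells but keep myeloid cells, vessels and stroma, so tumour RNA can hold mouse RNA, and how far it bound the human array was not tested. The labels do not say how many hairpins or clones were used, or whether each tumour came from its own mouse. The p-values therefore reflect sample-to-sample spread alone, which may be technical. The comparison asks which transcripts differ after Shp2 knockdown, and here which phosphatase genes the tumours expressed and whether any was higher when SHP2 was low.

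Protein tyrosine phosphatases remove the phosphate that tyrosine kinases add, through a catalytic cysteine in a conserved pocket. The non-receptor members (PTPN genes) are directed to their targets by SH2, FERM, PDZ or proline-rich regions, and the receptor members (PTPR genes) carry extracellular domains that bind other cells or matrix. SHP2 is unusual among them in that it promotes signalling from receptor tyrosine kinases to RAS and ERK, while many others dephosphorylate receptors, JAK kinases or SRC family kinases.

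RefSeq promoters (GRCh38.p14, 250 bases before to 50 after the gene's start) were matched for 33 of the 37 genes, which share 32 promoters because PTPN20A and PTPN20B are now 1 gene. No entry was matched for PTPRB, PTPRJ, PTPRN2 and PTPRQ. Those of 4 genes are shown, with CG dinucleotides in capitals.
The promoters are those of PTPRZ1 and PTPN12, the members compared whose groups did not overlap, of PTPN1, which encodes the widely expressed phosphatase PTP1B, and of PTPN6, which encodes SHP1, the closest relative of SHP2. They lie at chr7:121872911-121873210, chr7:77537793-77538092, chr20:50510133-50510432 and chr12:6946327-6946626, all on the plus strand.
PTPRZ1: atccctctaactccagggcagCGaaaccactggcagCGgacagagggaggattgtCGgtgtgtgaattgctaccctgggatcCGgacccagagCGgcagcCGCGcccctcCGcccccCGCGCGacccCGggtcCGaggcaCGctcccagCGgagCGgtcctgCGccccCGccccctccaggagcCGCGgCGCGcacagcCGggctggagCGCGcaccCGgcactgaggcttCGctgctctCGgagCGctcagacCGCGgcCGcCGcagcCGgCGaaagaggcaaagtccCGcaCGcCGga
PTPN12: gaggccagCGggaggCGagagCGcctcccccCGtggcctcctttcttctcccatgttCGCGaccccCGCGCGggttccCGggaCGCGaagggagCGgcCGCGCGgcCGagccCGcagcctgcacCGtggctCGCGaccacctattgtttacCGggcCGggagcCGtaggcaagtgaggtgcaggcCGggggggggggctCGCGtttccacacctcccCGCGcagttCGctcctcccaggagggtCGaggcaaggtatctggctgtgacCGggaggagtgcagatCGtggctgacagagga
PTPN1: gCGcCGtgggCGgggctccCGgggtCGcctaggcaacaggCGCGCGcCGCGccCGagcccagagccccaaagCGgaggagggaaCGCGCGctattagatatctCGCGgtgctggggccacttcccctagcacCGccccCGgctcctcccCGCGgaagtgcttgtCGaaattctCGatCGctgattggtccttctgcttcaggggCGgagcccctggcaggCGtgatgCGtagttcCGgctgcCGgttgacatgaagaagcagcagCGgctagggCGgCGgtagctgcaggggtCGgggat
PTPN6: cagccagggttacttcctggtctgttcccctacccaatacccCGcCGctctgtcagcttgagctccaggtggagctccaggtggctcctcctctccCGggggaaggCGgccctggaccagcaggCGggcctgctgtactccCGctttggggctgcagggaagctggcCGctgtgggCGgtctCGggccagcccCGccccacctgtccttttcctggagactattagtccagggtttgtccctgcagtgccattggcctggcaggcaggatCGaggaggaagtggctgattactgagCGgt
The promoters of PTPRZ1, PTPN12 and PTPN1 hold 38, 33 and 33 CG dinucleotides, against 12 in that of PTPN6.

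Values are the authors' GCRMA values, read as log2, and differences are knockdown minus control. The signal of negative control features on the same array served as the yardstick of detection. Their 95th percentile was 5.43, 5.18 and 5.09 in knockdown tumours 1 to 3 and 5.90, 5.43 and 5.12 in control tumours 1 to 3. Levels of different features are not compared with each other, since each has its own probes. In bulk tumours, fewer cells of a type and less RNA per cell cannot be told apart. Control 1 stood apart from the other arrays. Its positive control features had a median only 3.64 above that of its negative controls, against 4.11 to 4.47 in the other 5 arrays, and genes above the negative control percentile in at least 3 arrays lay on average 0.24 below their own mean there. For the tests, 12541 genes with a value above 4 in at least 3 arrays were compared with limma, with Benjamini-Hochberg adjustment over all of them. The precision is limited by 3 arrays a group, and the median standard error was 0.20 for the phosphatase genes compared.

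PTPN11 itself was lower in every knockdown tumour. Its values were 6.92, 6.34 and 6.88 in knockdown tumours, against 8.47, 8.76 and 9.05 in control tumours. The groups did not overlap, and the difference of -2.05 (SE 0.21) left 24.2% of the control level (95% interval 17.3 to 33.7%). The limma adjusted p was 0.034, and the exact two-sided permutation p was 0.1, the smallest that 6 tumours in groups of 3 allow. The call was lost when any array but control 1 was left out, with a difference of -1.86 to -2.19 throughout. PTPN11 was the only gene of all 12541 past the threshold.

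Of the 37 other phosphatase genes, 15 were above the negative control percentile in at least 3 arrays and 9 of these in all 6. A further 4 were above it in 1 or 2 arrays, and 18 in none. The low-value filter kept 24 genes and left out 13, and each of the 13 is among the 18.

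None of the 24 phosphatase genes compared passed the adjusted threshold of 0.05, beside 0.00797% of all genes. The adjusted limma p was 1.00 for each of them, and 1 of the 24 had an unadjusted limma p under 0.05, against 2.54% of all genes. Their groups did not overlap for 2 of 24, against 6.67% of all genes. PTPN12 was the 1 gene with all knockdown values above all control values (3.86% of all genes) and PTPRZ1 the 1 gene with all of them below (2.81% of all genes). Differences were positive for 16 and negative for 8, that is 66.7% positive beside 62.0% of all genes, with a median of 0.10 beside 0.05. With control 1 left out, the median over the phosphatase genes was -0.02 and that over all genes -0.01. For the 15 detected genes the upper ends of the 95% intervals reached at most 1.88-fold of the control level, so an increase of that size or less lies within at least 1 of these intervals.

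**Figure D1:**
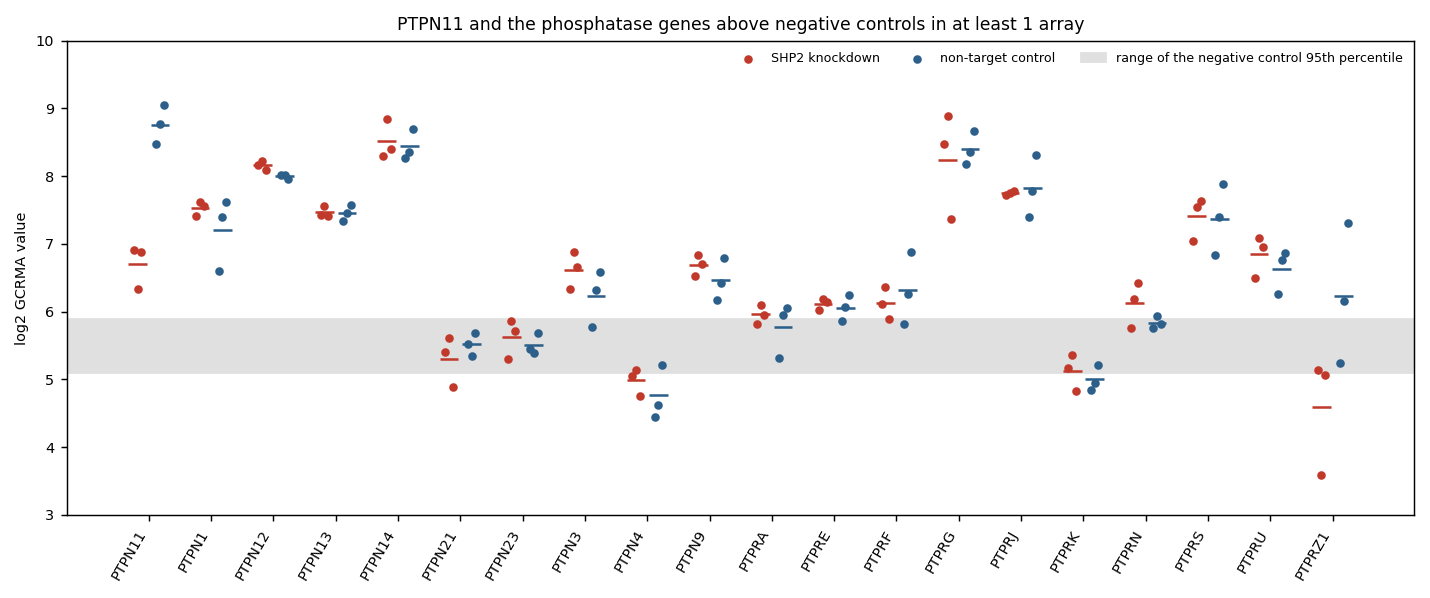
Log2 GCRMA values (y axis) of PTPN11 and the 19 phosphatase genes above negative controls in at least 1 array (x axis), with 1 point per tumour, SHP2 knockdown left (red) and non-target control right (blue), and a line at each group mean. The grey band spans the negative control 95th percentile of the 6 arrays, 5.09 to 5.90. PTPN11 and PTPRZ1 lie lower in all knockdown tumours, while the groups overlap for each other gene shown except PTPN12.

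Among the non-receptor phosphatases, the PTP1B type gave no difference beyond the spread. PTPN1 encodes PTP1B, which dephosphorylates the insulin receptor and JAK2. It had values of 7.41, 7.63 and 7.56 in knockdown tumours, against 6.60, 7.40 and 7.63 in control tumours. Control 1 was low and the other 5 arrays lay close together, and the difference of 0.32 (SE 0.25, limma adjusted p = 1.00) was 0.019 without control 1. Its paralogue PTPN2, the T cell phosphatase that acts on JAK1, averaged 4.24 ± 0.17 in knockdown and 4.08 ± 0.32 in control tumours (SD, n = 3 each). It did not exceed the negative control percentile on any array.

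PTPN12 encodes PTP-PEST, which dephosphorylates the adhesion scaffold p130Cas and paxillin. Its values were 8.17, 8.23 and 8.09 in knockdown tumours, against 8.02, 8.02 and 7.96 in control tumours. Every knockdown value was above every control value, but the difference was small, 0.17 (SE 0.15, 95% interval -0.16 to 0.50), or 1.12-fold. The unadjusted limma p was 0.27, and the exact two-sided permutation p was 0.1, the smallest that 3 against 3 can give. With 1 array left out the difference was 0.14 to 0.20. The other genes of the PEST type were at low values. PTPN18, which acts on ERBB2, averaged 4.08 ± 0.10 in knockdown and 4.25 ± 0.11 in control tumours. PTPN22, a lymphocyte phosphatase, averaged 1.18 in knockdown and 1.14 in control tumours.

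The FERM domain phosphatases, which sit at the junction of membrane and cytoskeleton, included 3 detected genes. PTPN14, which binds the transcriptional coactivator YAP, had 8.30, 8.84 and 8.41 in knockdown tumours, against 8.27, 8.35 and 8.70 in control tumours. PTPN13, a large PDZ protein that binds the death receptor FAS, had 7.42, 7.56 and 7.42 in knockdown tumours, against 7.34, 7.45 and 7.57 in control tumours. The groups overlapped in both, and the intervals of the differences were -0.36 to 0.52 for PTPN14 and -0.33 to 0.35 for PTPN13. PTPN3, a FERM and PDZ phosphatase, had 6.33, 6.87 and 6.66 in knockdown tumours, against 5.77, 6.33 and 6.58 in control tumours. Its difference of 0.39 (SE 0.23, exact permutation p = 0.2) was the highest of the 24 genes, but the groups overlapped, and without control 1 it was 0.17. Its paralogue PTPN4 was above negative controls in 1 array (4.99 ± 0.20 in knockdown and 4.76 ± 0.41 in control tumours), and PTPN21, which associates with SRC, in 2 arrays (5.30 ± 0.37 in knockdown and 5.52 ± 0.17 in control tumours).

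Phosphatases of vesicle traffic were detected, PTPN9 in all 6 arrays and PTPN23 in 3 (knockdown 2, knockdown 3 and control 3). PTPN9, whose SEC14 domain binds phosphoinositides on secretory vesicles, had 6.53, 6.84 and 6.71 in knockdown tumours, against 6.18, 6.42 and 6.79 in control tumours. PTPN23, which takes part in endosomal sorting of receptors, had 5.30, 5.86 and 5.71 in knockdown tumours, against 5.46, 5.38 and 5.69 in control tumours. The groups overlapped in both, with differences of 0.23 (SE 0.19) for PTPN9 and 0.12 (SE 0.19) for PTPN23.

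SHP1, the other phosphatase with tandem SH2 domains and best known from blood cells, was not detected in either group. PTPN6 had 3.44, 3.23 and 3.68 in knockdown tumours, against 3.35, 3.42 and 2.71 in control tumours. All 6 values lay below the negative control percentile and below the low-value filter, so no test was made. The phosphatases that dock on ERK through a kinase interaction motif were also below both. PTPN5, found in neurons, averaged 3.40 in knockdown and 3.32 in control tumours. PTPN7, found in blood cells, averaged 3.43 in knockdown and 3.36 in control tumours, and PTPRR 1.95 in knockdown and 1.88 in control tumours. PTPN20A averaged 2.41 in knockdown and 2.71 in control tumours, and PTPN20B 1.59 in knockdown and 1.45 in control tumours. These 2 symbols are now names of 1 gene.

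PTPRZ1 had the largest difference among the phosphatase genes. It encodes a receptor phosphatase, best known from glia, that binds the growth factors pleiotrophin and midkine and the adhesion protein contactin 1. Its values were 5.15, 3.59 and 5.06 in knockdown tumours, against 5.24, 6.15 and 7.30 in control tumours. The groups did not overlap, but knockdown 1 and control 1 were only a small step apart, and the value was above negative controls in only 2 arrays, controls 2 and 3. The difference of -1.63 (SE 0.52, 95% interval -2.79 to -0.47) corresponds to 32.2% of the control level (14.4 to 72.0%). Of the 12541 genes compared, only PTPN11 had a lower difference, but PTPRZ1 was 49th by p, with an unadjusted limma p of 0.011 and an adjusted p of 1.00. The exact two-sided permutation p was 0.1, the smallest possible. The spread within groups was wide, with SDs of 0.87 in knockdown and 1.04 in control tumours, against a median of 0.30 for the detected phosphatase genes. The difference was -1.10 without control 3, -1.13 without knockdown 2 and -2.13 without control 1, and its adjusted p ranged from 0.19 to 1.00 over the alternatives.

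The partners of PTPRZ1 that were compared gave no call. Its ligand pleiotrophin, PTN, had 6.61, 6.72 and 6.86 in knockdown tumours, against 6.62, 7.12 and 7.50 in control tumours, a difference of -0.35 (SE 0.22). Midkine, MDK, averaged 5.86 ± 0.19 in knockdown and 5.73 ± 0.19 in control tumours. CNTN1, far below negative controls, averaged 2.59 in knockdown and 2.52 in control tumours, and no test of it was made. SOX10, a transcription factor of glia and melanocytes, had 4.78, 4.17 and 6.00 in knockdown tumours, against 4.42, 5.50 and 5.63 in control tumours. The array lowest for PTPRZ1, knockdown 2, was also the lowest for SOX10, while knockdown 3, the highest for SOX10, had a low PTPRZ1 value. S100B, a lineage marker detected in all arrays, had 8.53, 8.25 and 9.11 in knockdown tumours, against 8.42, 8.93 and 9.30 in control tumours. Like PTPRZ1 it was lowest in knockdown 2 and highest in control 3, but its knockdown 3 value was above that of control 2. The part of lineage state in the PTPRZ1 difference was not tested.

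PTPRG, the paralogue of PTPRZ1 with the same carbonic anhydrase-like domain, was detected in all arrays. It had 8.48, 8.88 and 7.36 in knockdown tumours, against 8.19, 8.36 and 8.67 in control tumours. Knockdown 3 was more than 1 log2 unit below the other knockdown tumours, which lay inside or above the control range. The difference was -0.16 (SE 0.34) with all arrays and 0.27 without knockdown 3, and the 95% interval, -0.91 to 0.58, was the widest of the detected genes.

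LAR type receptors bind heparan and chondroitin sulphate proteoglycans. PTPRS had 7.05, 7.55 and 7.63 in knockdown tumours, against 6.83, 7.40 and 7.88 in control tumours. PTPRF, which encodes LAR, had 6.12, 6.37 and 5.89 in knockdown tumours, against 5.81, 6.27 and 6.88 in control tumours. In both genes the control tumours spanned the knockdown range, and the differences were 0.035 (SE 0.27) for PTPRS and -0.20 (SE 0.26) for PTPRF. The difference of PTPRF was 0.083 without control 3, and that of PTPRS was -0.24 without control 1. PTPRD, which is often deleted in tumours, averaged 3.40 in knockdown and 3.46 in control tumours, below negative controls.

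Of the receptors with a MAM domain, most of which bind their own kind on neighbouring cells, PTPRU was detected in all 6 arrays. It had 6.49, 7.09 and 6.95 in knockdown tumours, against 6.26, 6.77 and 6.87 in control tumours, a difference of 0.21 (SE 0.22). PTPRK was above negative controls in 2 arrays, with a difference of 0.12 (SE 0.19). PTPRM averaged 4.68 ± 0.11 in knockdown and 4.71 ± 0.08 in control tumours, and PTPRT 3.19 in knockdown and 3.02 in control tumours, both below negative controls on every array.

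PTPRJ, a receptor phosphatase with fibronectin type III repeats that acts on receptor tyrosine kinases and SRC, was tight in one group and wide in the other. It had 7.72, 7.75 and 7.78 in knockdown tumours, against 7.40, 7.78 and 8.32 in control tumours. The SD was 0.030 in knockdown and 0.46 in control tumours, and the difference was -0.078 (SE 0.22). Its relatives were below negative controls on every array. PTPRH averaged 4.15 ± 0.06 in knockdown and 3.92 ± 0.49 in control tumours, and the endothelial PTPRB 2.30 in knockdown and 2.33 in control tumours. The podocyte receptor PTPRO averaged 1.69 in knockdown and 1.84 in control tumours, and PTPRQ, known from inner ear hair cells, 1.56 in knockdown and 1.59 in control tumours.

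PTPRA and PTPRE have short ectodomains and activate SRC family kinases by removing their inhibitory phosphate. PTPRA had 5.82, 6.10 and 5.95 in knockdown tumours, against 5.32, 5.95 and 6.05 in control tumours. PTPRE had 6.02, 6.19 and 6.14 in knockdown tumours, against 5.86, 6.07 and 6.24 in control tumours. Control 1 was lowest in both, and the groups overlapped. The difference was 0.19 (SE 0.21) for PTPRA and -0.040 without control 1, and 0.061 (SE 0.16) for PTPRE and -0.037 without control 1.

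PTPRN and PTPRN2 are proteins of secretory granules and known autoantigens in type I diabetes. PTPRN had 5.76, 6.20 and 6.43 in knockdown tumours, against 5.75, 5.93 and 5.81 in control tumours. Knockdown 2 and 3 were above all control values and knockdown 1 was among them, with a difference of 0.29 (SE 0.19, exact permutation p = 0.3). PTPRN2 averaged 4.41 ± 0.03 in knockdown and 4.47 ± 0.11 in control tumours, below negative controls. PTPRC, which encodes the leukocyte receptor CD45, was near the bottom of the scale, with 1.35, 1.24 and 1.21 in knockdown tumours, against 0.98, 1.01 and 1.07 in control tumours. Its groups did not overlap, but all 6 values were far below the negative control percentile and no test was made.

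**Figure D2:**
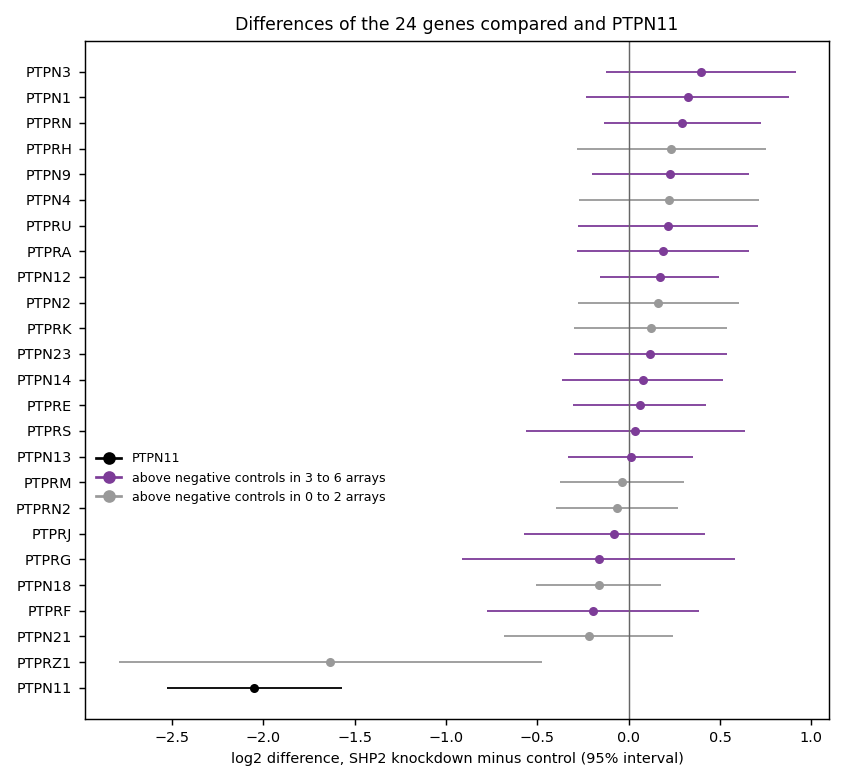
Log2 differences with 95% intervals (x axis, knockdown minus control) of the 24 phosphatase genes compared and PTPN11 (y axis, ordered by difference). Black is PTPN11, purple genes above negative controls in 3 to 6 arrays and grey those above in 0 to 2 arrays. The intervals of PTPN11 and PTPRZ1 lie below 0, and those of the other 23 genes include 0.

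The detected phosphatase genes differed from array to array in a shared way. In 12 of the 15 the lowest of 6 values was that of control 1, and in 8 the highest was that of knockdown 2 and in 6 that of control 3. Such counts over all detected genes are not given here, so these counts show nothing particular to the phosphatases. On average the 15 genes lay -0.10, 0.24 and 0.02 from their own means in knockdown tumours 1 to 3, and -0.35, -0.03 and 0.22 in control tumours 1 to 3. The 7006 genes above negative controls in at least 3 arrays had average deviations of -0.08, 0.13 and 0.06 in knockdown tumours 1 to 3 and -0.24, -0.01 and 0.14 in control tumours 1 to 3. In both sets control 1 was the lowest array, and knockdown 2 and control 3 were the highest. The 3 genes not lowest in control 1 were PTPN12, lowest in control 3, PTPN23, lowest in knockdown 1, and PTPRG, lowest in knockdown 3.

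**Figure D3:**
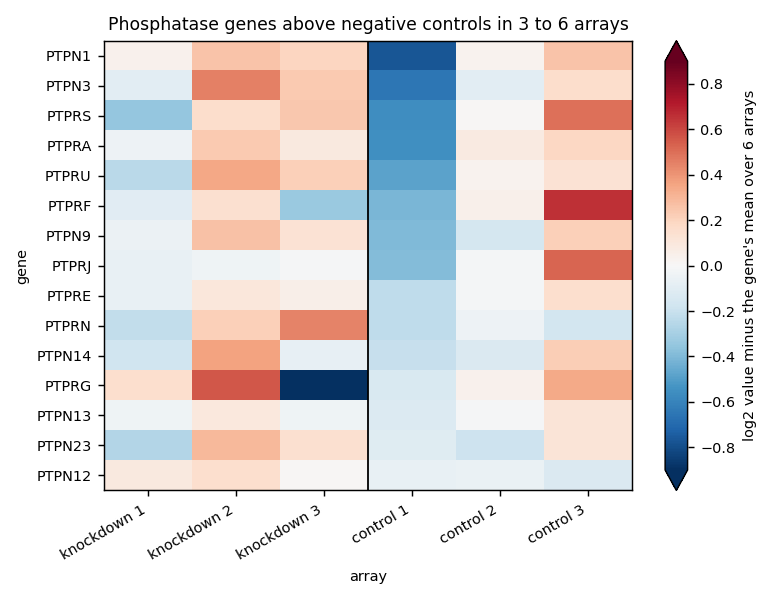
Deviation of each log2 value from the gene's mean over 6 arrays (colour) for the 15 phosphatase genes above negative controls in 3 to 6 arrays (y axis), by array (x axis, knockdown left of the line, control right). The control 1 column is below 0 for each gene, and knockdown 3 of PTPRG lies at or beyond the end of the colour scale.

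The median number of CG dinucleotides was lower in promoters of undetected than of detected phosphatase genes. The median count was 33.5 (0 to 55) in 14 promoters of genes above negative controls in at least 3 arrays, 35.5 (24 to 44) in 4 of genes above them in 1 or 2 arrays, and 10 (1 to 53) in 14 of genes above them in none. All 35116 promoters of the table had a median of 14. That set takes every entry of full length, with no choice of gene class or of 1 start per gene. It is thus unlike the phosphatase set, here and for the motifs below. The classes overlapped: PTPN3 was detected with 0 CG dinucleotides in this window, and PTPRT and PTPRM were not with 53 and 50. This is a description of these genes, without a test, and the window is that of 1 RefSeq start. An SP1 box (GGGCGG, both strands) was found in 9 of 14 promoters of detected genes and 7 of 14 of undetected genes, beside 45.0% of all promoters. The TATA box TATAAA, on both strands, was found in 0 of 32, beside 11.5% of all. The E-box CACGTG was found in 1 of the 32 (PTPRS), the AP-1 site TGANTCA in 1 (PTPN9) and the ETS site CCGGAAGT in 1 (PTPN23), again on both strands, beside 7.26%, 7.71% and 4.14% of all promoters.

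**Figure D4:**
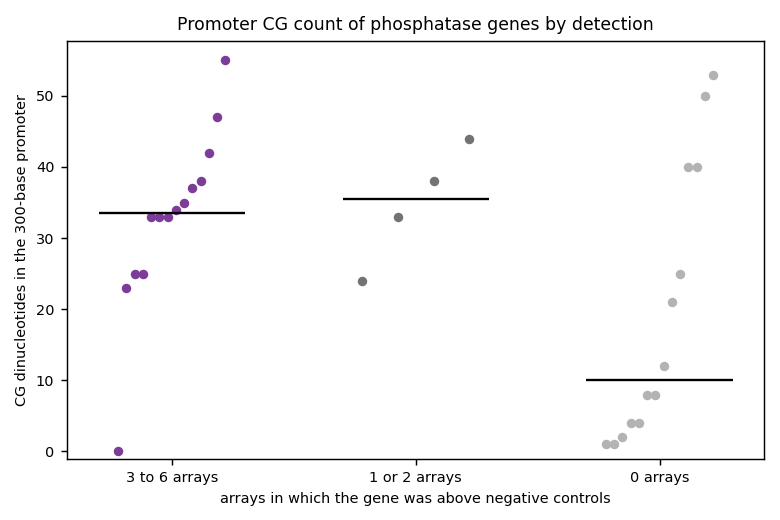
Number of CG dinucleotides in the 300-base promoter (y axis) of the 32 matched phosphatase promoters, by the number of arrays in which the gene was above negative controls (x axis). Lines are medians, 33.5, 35.5 and 10, and the classes overlap.

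Genes that work with these phosphatases gave no call. Of 21 other genes from families of cysteine or aspartate phosphatases, not all of them active enzymes, 18 were compared. Of these 0 passed in either direction, and 14 differences were positive (median 0.08, beside 0.05 for all genes). CDC25A, which activates cyclin-dependent kinases, averaged 4.76 ± 0.12 in knockdown and 4.37 ± 0.06 in control tumours, below negative controls in all arrays. Its relative CDC25B, detected in all arrays, differed by 0.31 (SE 0.22).

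Of 27 ligands and surface partners, 13 were compared, 0 passed, and 5 differences were positive and 8 negative (median -0.15). The heparan sulphate proteoglycan gene SDC4 averaged 10.11 ± 0.18 in knockdown and 9.76 ± 0.18 in control tumours without overlap, and IL1RAP, a partner of LAR type receptors, averaged 5.84 ± 0.47 in knockdown and 6.38 ± 0.46 in control tumours. Of 14 scaffolds and binding partners, 10 were compared and 0 passed (4 positive, 6 negative, median -0.09). The adaptor GRB2 differed by 0.29, the liprin PPFIBP2 by 0.16 and PTPRCAP by -0.19. Of 30 substrates, 29 were compared and 0 passed (15 positive, 14 negative, median 0.02). The receptor gene PDGFRA averaged 7.48 ± 0.31 in knockdown and 6.95 ± 0.04 in control tumours without overlap (difference 0.53, SE 0.18), and EGFR differed by 0.21.

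Markers of other cell types were mostly undetected. Of the leukocyte markers 7 of 8 were below negative controls in every array (the exception was CD68). The sum of all 8 on the linear scale (2 to the power of each value) was 197 to 405 in knockdown and 169 to 257 in control tumours. Most of this sum was CD68, so it is not a level of leukocytes. CD68 averaged 7.71 ± 0.63 in knockdown and 7.30 ± 0.50 in control tumours, and the groups overlapped. All 7 endothelial markers in the table were below negative controls (sums 75.8 to 79.1 in knockdown and 72.5 to 82.4 in control tumours), as were all 5 keratinocyte markers. Of 8 fibroblast and pericyte markers 6 were, with COL1A1 and PDGFRB above in all arrays and sums of 383 to 506 in knockdown and 405 to 471 in control tumours. Of 7 melanocyte lineage markers 5 were, among them MLANA, PMEL and TYR, while S100B was above in all 6 arrays and SOX10 in 3. Of the lineage markers, the labelled melanoma origin was thus seen in S100B and SOX10 only. Of 5 neuroendocrine markers only SNAP25 was above negative controls, in 4 arrays, and the 3 compared gave 0 calls. Of 8 immediate early and heat shock genes, 7 were compared and 0 passed, with 4 positive and 3 negative differences. EGR1 had the largest of these differences, 0.41 (SE 0.18, 95% interval 0.0026 to 0.82), and its groups overlapped. SHP2 promotes signalling to ERK, and whether the knockdown itself moved the immediate early genes was not tested. These genes therefore cannot separate handling from the knockdown.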

How the data were processed

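Total RNA from 6 xenograft tumours was measured on arrays by the Affymetrix protocol, per the labels' protocols. No source used here gives the array design, annotation release or software version. The deposited values are GCRMA values per the submitters' processing notes (background by probe sequence, normalization between arrays, probe summary, as commonly defined). They range from 0.049 to 13.3 and are read as log2 values, since the authors' log base is not stated. The deposited annotated table and the series value table are identical (largest difference 0).

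Of 53617 features, 26419 carry 1 symbol. The feature with the highest mean stood for each gene, and genes above 4 in at least 3 of 6 arrays were kept (12541). Groups were compared with limma 3.58.1 (lmFit, eBayes, no covariate, all 6 arrays, 4 residual degrees of freedom) in R 4.3.3, two-sided, with Benjamini-Hochberg adjustment over all genes kept at a threshold of 0.05. Intervals are 95% moderated intervals. Detection was set against the 95th percentile of 3575 negative control features of the same array. On simulated data for this comparison (12541 genes), limma called 6% of changes of 0.5, 84% of 1 and 100% of 1.5 and of 2 log2 units (50 genes each), and 19 unchanged genes. So many changed genes at once make the adjusted threshold easier to pass. In the tumours PTPN11 alone passed, with an adjusted limma p of 0.034 at -2.05. The simulated shares therefore do not hold for a gene that changes alone, and 0 calls do not exclude such changes. Promoters were read from RefSeq (GRCh38.p14) by symbol or synonym.

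The members and lists were chosen with earlier results of these data known. Every member is named. Values per tumour are given for members above negative controls in at least 3 arrays or with groups that do not overlap, and up to 3 genes of smallest p for each partner list; some genes that this names are not reported here. Genes named outside this rule (PTPN6, MDK, CNTN1, SOX10, and the single values of PTN and S100B) were chosen for their relation to a member after their values were seen. EGR1 is named because its difference was the largest of its list. Alternatives were other filters, features, normalizations and variance models, a block, and leaving out each array. A covariate for the control contrast and a fit without both arrays numbered 1 were added after the data were seen.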

Additional observations from a re-analysis of the deposited data

How the results depend on the processing

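The count of phosphatase genes past the threshold was 0 in all 20 alternatives. The count over all genes was 0 with no filter, after quantile normalization, with arrays centred on their median and with the control contrast as a covariate, 2 without both arrays numbered 1, and 0 to 1 with 1 array left out. PTPN11 lost its call with no filter (-2.05, adjusted p 0.079), quantile normalization (-2.11, 0.091), centring (-2.10, 0.084) and the covariate (-2.16, 0.074), and ranged from -2.19 to -1.86 with 1 array left out (adjusted limma p 0.021 to 0.27). With fewer genes the call was kept, at an adjusted limma p of 0.0082 with the filter at 6 and 0.014 with that at the negative control percentile. No filter means adjustment over more genes, and leaving out an array lowers the degrees of freedom. Quantile normalization and centring change neither, and why the call was lost there was not tested. The median over phosphatase genes ranged from -0.02 to 0.21 with 1 array left out. Of 435 member differences under alternatives, 397 kept their sign and 38 changed it, in 14 of 24 genes, and none passed the threshold. PTPRZ1, PTPN12, PTPN3 and PTPN1 kept their sign in every alternative in which they were compared, and PTPRZ1 was not compared under the filter at 6 or at the negative control percentile.

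Signs changed after quantile normalization for PTPN13 (-0.063), PTPRE (-0.0069) and PTPRS (-0.034), with centring for PTPN13 (-0.036) and PTPRS (-0.011), and with array weights for PTPN13 (-0.0037) and PTPRM (0.0070). With the covariate they changed for PTPN13 (-0.059), PTPN14 (-0.071), PTPN2 (-0.049), PTPN23 (-0.0016), PTPRA (-0.058), PTPRE (-0.062), PTPRH (-0.045), PTPRS (-0.33) and PTPRU (-0.046). Without both arrays numbered 1 they changed for PTPN13 (-0.025), PTPRH (-0.0056), PTPRM (0.049) and PTPRS (-0.054). With 1 array left out the ranges that crossed 0 were -0.047 to 0.070 for PTPN13, -0.087 to 0.21 for PTPN14, -0.011 to 0.31 for PTPN2, -0.00025 to 0.28 for PTPN23, -0.040 to 0.33 for PTPRA, -0.037 to 0.15 for PTPRE, -0.45 to 0.083 for PTPRF, -0.49 to 0.27 for PTPRG, -0.034 to 0.44 for PTPRH, -0.29 to 0.16 for PTPRJ, -0.0018 to 0.27 for PTPRK, -0.096 to 0.0095 for PTPRM and -0.24 to 0.29 for PTPRS.

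The sample numbers are shared between groups, and deviations of same-numbered tumours correlated at 0.42, -0.034 and 0.17. Correlations between tumours of different number were not computed, so these values cannot show whether the number marks a pairing. The main comparison used no pairing, and whether the tumours were paired was not tested. With the number as a replicate block 5 genes passed in place of 1, and 0 of the phosphatase genes.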
